A study of Mus musculus with 18 samples.

Results

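Furtive Treg cells are sorted GFP+ CD4 T cells that carry the authors' detailed annotation Treg_furtive. They were taken by that annotation, and they number 117 of the 562 sorted GFP+ cells and of 26652 cells in the whole series. The name marks cells that came through a gate for regulatory T (Treg) cells but were placed by their transcriptome among conventional CD4 T (Tconv) cells: in the deposited cluster column each of the 117 cells lies in a cluster named for Tconv, Th1, Tfh or NKT cells, and none in a Treg cluster. Treg cells are CD4 T cells that restrain immune responses. They depend on the transcription factor Foxp3, bind interleukin 2 (IL-2) through a high-affinity receptor that includes Il2ra (CD25), and in many cases express Ikzf2 (Helios). Resting T cells that recirculate through lymphoid organs, Treg cells included, use the chemokine receptor Ccr7, so resting Treg and naive Tconv cells share much of their expression.

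The furtive cells came from WT male mice aged 9 weeks of the strain labelled B6 Foxp3-IRES-GFP x CD45.1, in which GFP is translated from the Foxp3 transcript. Spleen cells were gated as live (DAPI-negative) TCRβ+ CD4+ cells with GFP for the Treg sort and without GFP for the Tconv sort, and the labels give no treatment. Both sorts were run with the V3 kit of 10x Genomics, which counts transcripts near the end of the RNA by unique molecular identifiers (UMIs), and each has 2 samples, 1 in each of 2 channels named tube A (replicate 1) and tube B (replicate 2). The furtive cells were set against Treg_resting cells (213) and Treg_activated cells (142) of the GFP+ sort, and against all 510 cells of the Tconv sort, 6 of which are annotated as Treg. The other 14 of the 18 samples hold CD4 T cells, not split by GFP, of WT and ∆Foxp3 mice and of mixed bone marrow chimeras, and no cell in them is annotated as furtive.

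The sort of each cell was read from a hashtag, a DNA barcode on an antibody that marked the cells before pooling. The 2 barcodes are shown because the assignment to a sort, and so to the furtive group, rests on them, and the capitals mark the whole barcode.
Hash7, GFP+ sort: GAGTCTGCCAGTATC
Hash8, GFP- Tconv sort: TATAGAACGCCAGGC
Furtive cells held a median of 47.0 Hash7 counts (lowest 10) in replicate 1 and 83.5 (lowest 35) in replicate 2, and no furtive cell held more than 1 count of Hash8. Resting Treg cells had Hash7 medians of 44.0 and 68.0. Cells were given their sort by these counts, so they are a description. The 2 samples of each sort carry 1 hashtag, so they may come from 1 mouse, and the p-values below then measure technical spread. No cell barcode was shared by the 2 GFP+ samples. Over all cells of the series, 9 were shared between batches named for tube A and batches named for tube B.

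The depth of furtive cells lay in the range of the other classes in replicate 1 and was the lowest of the 4 in replicate 2. Furtive cells held a median of 4986 and 4878 UMIs per cell (replicates 1 and 2), against 4759 and 6092 in resting Treg, 4022 and 5082 in activated Treg and 5176 and 6402 in Tconv cells. The median share of mitochondrial UMIs was 6.75% and 6.39% in furtive cells and 7.20% and 7.01% in Tconv cells. Median doublet scores were 0.0946 and 0.0630 in furtive cells and 0.0734 and 0.0743 in Tconv cells. The deposited calls mark none of the 26652 cells of the series as a doublet, so they cannot tell the classes apart. Summed over cells, the furtive group holds 432609 and 189292 UMIs, the resting Treg group 665999 and 438566, the activated Treg group 319941 and 388293, and the Tconv group 1935241 and 955097.

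Furtive cells made up 25.1% of sorted GFP+ cells in replicate 1 (83 of 331, exact 95% binomial interval 20.5% to 30.1%) and 14.7% in replicate 2 (34 of 231, 10.4% to 20%), a mean of 19.9% ± 7.32 (SD, n = 2). In both samples they were fewer than the resting Treg cells (41.4% and 32.9%). Binomial intervals here and below cover counting error only.

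Most furtive cells lay in resting clusters. In replicate 1, 75.9% of furtive cells fell in the 3 resting Tconv clusters and in replicate 2 85.3% did, against 85.1% and 73.0% of Tconv cells. The largest was Tconv_resting_1, whose deposited marker label includes Ccr7 and low Cd44, with 42 of 83 and 17 of 34 furtive cells (50.6% and 50.0%) and 71.3% and 60.8% of Tconv cells. The clusters named for Irf7, a transcription factor of the interferon response, held 20.5% of furtive cells in replicate 1 (17 cells, 12.4% to 30.8%) and 35.3% in replicate 2 (12 cells, 19.7% to 53.5%), against 9.67% (6.83% to 13.2%) and 10.1% (5.78% to 16.2%) of Tconv cells. Both furtive samples were above both Tconv samples in the Irf7 share, and the intervals of replicate 1 overlap between 12.4% and 13.2%. The shares have unlike bases, since the furtive group leaves out GFP+ cells of other Treg annotations and the Tconv group is a whole sort. The 29 furtive cells of the Irf7 clusters come from 562 sorted GFP+ cells, and the 50 Tconv cells from 510. Of the remaining furtive cells of both replicates, 7 lay in Tconv_activated_2, 7 in Th1, 6 in NKT, 5 in Tconv_resting_TCRhi and 4 in Tfh clusters. Since the clusters were drawn from the expression of these cells, the shares are a description. They matter for what follows, because furtive and Tconv sums mix the clusters in different proportions.

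**Figure D1:**
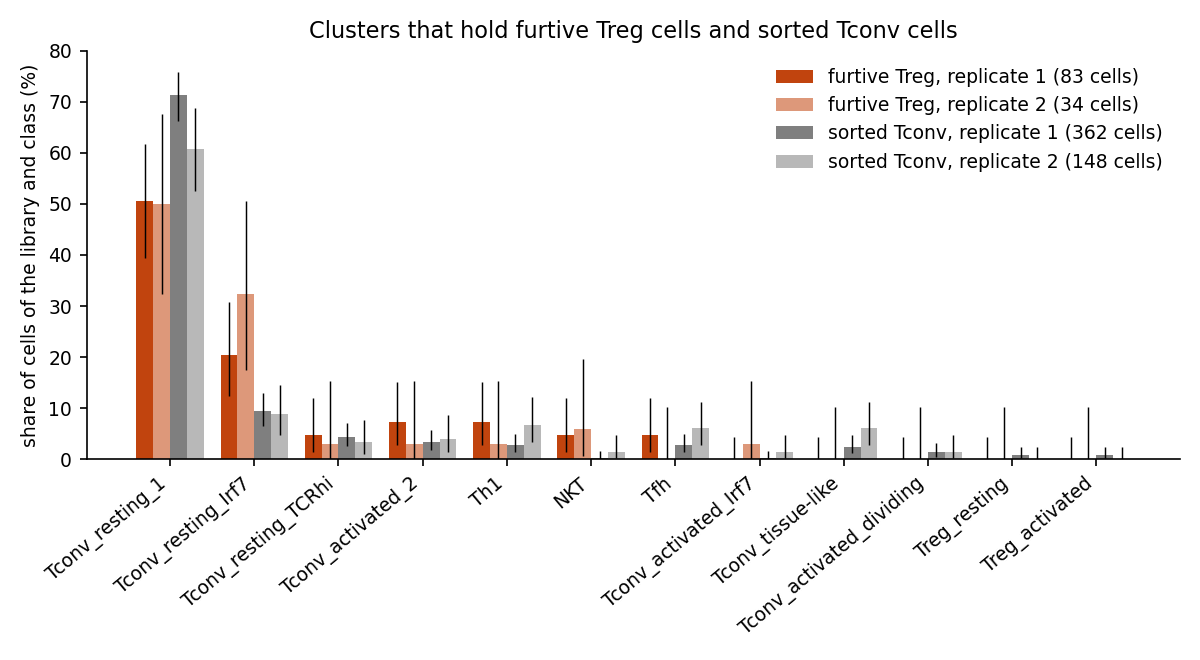
Share of cells in each cluster (%), for furtive Treg cells and sorted Tconv cells of replicates 1 and 2, with exact 95% binomial intervals as bars. In furtive cells Tconv_resting_1 holds 50.6% and 50.0%, and the Irf7 resting cluster holds 20.5% and 32.4% of furtive cells against 9.39% and 8.78% of Tconv cells.

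The label was checked against the reporter and the Treg markers first. GFP transcripts were found in 19 of 83 furtive cells in replicate 1 (22.9%, 14.4% to 33.4%) and in 11 of 34 in replicate 2 (32.4%, 17.4% to 50.5%). Resting Treg cells had shares of 30.7% and 36.8%, activated Treg cells 38.9% and 35.7%, and Tconv cells 0.829% (3 of 362) and 2.03% (3 of 148). The furtive share lies above the Tconv share by a mean of 26.2 percentage points, with no overlap, and the binomial intervals of furtive and resting Treg cells overlap (23.1% to 39.1% and 26.1% to 48.7% in resting Treg). The cells were sorted on GFP protein, so this difference was set by the gate and checks only the sort. With 2 samples a group the exact two-sided permutation test cannot go below p = 0.333, which is the value it gave. Foxp3 itself, the gene on chromosome X (7573644 to 7595245, GRCm38), had a UMI in 13.3% and 5.88% of furtive cells, 12.4% and 11.8% of resting Treg cells and 9.72% and 12.9% of activated Treg cells. It was found in 0 of 362 and 0 of 148 Tconv cells, where a limit of 3 counts allows shares of up to 0.829% and 2.03%. A UMI of either was present in 31.3% and 35.3% of furtive cells, so most furtive cells showed no reporter transcript at this depth, as did most resting Treg cells (39.4% and 47.4% with one). Foxp3 failed the count filter of the test below. With 16 UMIs over both furtive sums and 0 over both Tconv sums, it was at least 24.8-fold higher in furtive cells with the 2 Tconv sums together set at 3 counts.

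Il2ra (chromosome 2, 11642807 to 11693193) was detected in 51.8% and 38.2% of furtive cells, between the resting Treg shares of 68.6% and 76.3% and the Tconv shares of 0% (0 of 362, up to 0.829% by the same limit) and 2.03%. Ikzf2 (chromosome 1, 69531214 to 69687245) was detected in 51.8% and 58.8% of furtive cells, 71.5% and 72.4% of resting Treg, 93.1% and 94.3% of activated Treg and 4.14% and 6.76% of Tconv cells. At least 1 UMI of Foxp3, GFP, Il2ra or Ikzf2 was present in 67 of 83 and 30 of 34 furtive cells (80.7% and 88.2%), 94.9% and 96.1% of resting Treg and 4.97% and 10.8% of Tconv cells. When each cell was thinned to 1500 UMIs, with no cell lost, the furtive means fell to 28.2% for Il2ra and 26.5% for Ikzf2, against 41.6% and 45.7% in resting Treg and 0.676% and 0.476% in Tconv cells, in the same order. For GFP the thinned means were 8.89%, 11.2% and 1.01% in furtive, resting Treg and Tconv cells, a difference to Tconv of 7.88 points.

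**Figure D2:**
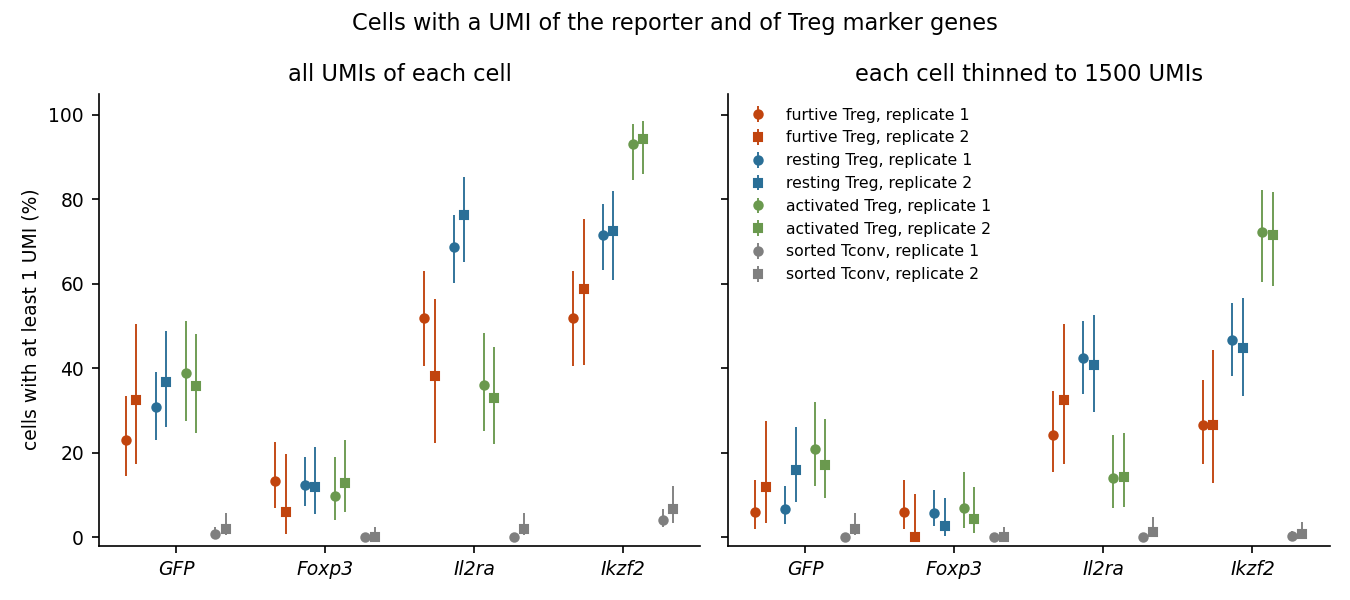
Cells with at least 1 UMI (%) of GFP, Foxp3, Il2ra and Ikzf2 in each class and replicate, with exact 95% binomial intervals, for all UMIs (left) and for cells thinned to 1500 UMIs (right). Furtive cells lie above Tconv cells for GFP, Il2ra and Ikzf2, and below resting Treg cells for Il2ra and Ikzf2.

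The marker UMIs were spread over the group and not held by a few cells. A list of 37 Treg signature genes without Foxp3 gave a median of 5 and 7 UMIs per thinned furtive cell, with quartiles of 3.5 and 9 in replicate 1 and 4 and 9 in replicate 2. Resting Treg cells had medians of 7 and 8, activated Treg cells 13.5 and 13, and Tconv cells 1 and 1. No such UMI was seen in 2 of 83 and 0 of 34 furtive cells, against 178 of 362 and 62 of 148 Tconv cells.

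**Figure D3:**
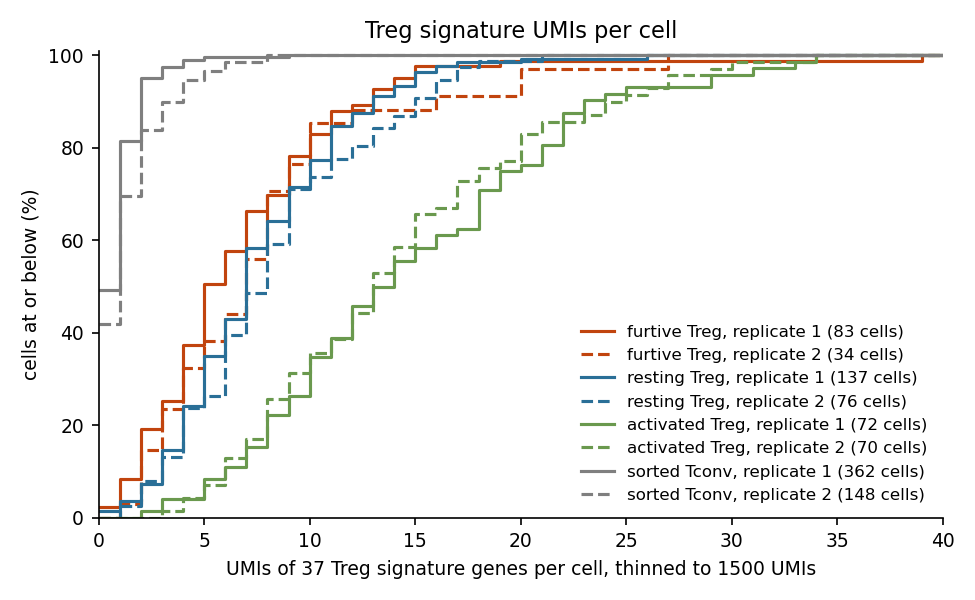
Cumulative share of cells (%) against the number of UMIs of 37 Treg signature genes per cell, each cell thinned to 1500 UMIs, by class and replicate. The furtive curves run close to those of resting Treg cells and far right of those of Tconv cells, whose median is 1 UMI.

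Furtive cells were then tested against Tconv cells gene by gene, on UMI sums per sample, with edgeR's quasi-likelihood test. The GFP gate separates these groups and was set on protein, although the furtive side is limited to cells that clustered with Tconv cells. Levels are given in CPM, the UMIs of a gene divided by all UMIs of the sum and scaled to 1000000. Of 6198 genes tested, 155 were higher in furtive cells (2.50%) and 76 lower (1.23%) at a Benjamini-Hochberg adjusted p under 0.05. With the channel as a replicate block the counts were 180 higher (2.90%) and 151 lower (2.44%). Without furtive replicate 1 they were 65 and 17, without furtive replicate 2 64 and 22, and without Tconv replicate 1 78 and 55. DESeq2 called 73 higher and 22 lower.

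Treg signature genes were 24 of the 155 higher genes. Of 38 listed genes 28 passed the count filter, and of these 24 were higher and none lower, with a median log2 fold change of 3.00 beside -0.01 over all 6198 genes. A gene absent from Tconv cells could pass the filter only through its furtive counts, so the share of 24 in 28 is a description. Set against the same Tconv samples, which all these comparisons share, resting Treg cells had 25 of 27 tested members higher and activated Treg cells 28 of 29. The counts for all genes were 232 higher (3.51%) and 171 lower (2.59%) of 6603 in resting Treg and 633 higher (9.75%) and 561 lower (8.64%) of 6494 in activated Treg cells.

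Among receptors, Il2ra had 231 and 164 CPM in furtive cells, 379.9 and 408 CPM in resting Treg, 159 and 121 CPM in activated Treg and 0 and 4.19 CPM in Tconv cells. Furtive and Tconv sums did not overlap, and the difference was 6.91 ± 0.48 (log2 fold change ± SE, adjusted p = 6.17e-07). Ctla4, which competes with the costimulatory receptor CD28 for its ligands, had 294 and 417 CPM in furtive cells, 150.2 and 217 CPM in resting Treg, 628 and 749 CPM in activated Treg and 4.13 and 22.0 CPM in Tconv cells. Here furtive cells lay between the 2 Treg classes, 4.86 ± 0.36 above Tconv cells on the log2 scale (adjusted p = 6.61e-07).

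The higher genes of the TNF receptor family included Tnfrsf1b and the 3 described here. Tnfrsf4 (OX40), a costimulatory receptor, had 437 and 623 CPM in furtive cells, 395 and 495 CPM in resting Treg, 1628 and 1468 CPM in activated Treg and 14.5 and 23.0 CPM in Tconv cells (furtive over Tconv 4.69 ± 0.22 on the log2 scale, adjusted p = 7.43e-09). Tnfrsf18 (GITR) had 324 and 306 CPM in furtive cells against 72.9 and 84.8 CPM in Tconv cells (1.86 ± 0.17, adjusted p = 8.37e-06). Tnfrsf9 (4-1BB) had 80.9 and 211 CPM in furtive cells against 14.0 and 8.38 CPM in Tconv cells (3.21 ± 0.40, adjusted p = 1.84e-04). In none of the 3 did a furtive sum overlap a Tconv sum.

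The transcription factor Ikzf2 had 321 and 264 CPM in furtive cells, 404 and 401 CPM in resting Treg, 872 and 804 CPM in activated Treg and 9.82 and 15.7 CPM in Tconv cells. It was 4.47 ± 0.24 higher than in Tconv cells on the log2 scale (adjusted p = 2.54e-08). Lrrc32 (GARP), which holds latent TGF-β on the Treg surface, had 64.7 and 84.5 CPM in furtive cells, 192 and 157 CPM in resting Treg, 81.3 and 67.0 CPM in activated Treg and 0 CPM in both Tconv sums. It was at least 68.2-fold higher than in Tconv cells with the 2 Tconv sums together set at 3 counts (adjusted p = 1.07e-05), and 31 of 117 furtive cells held a UMI of it. Folr4, the folate receptor family member also called Izumo1r, had 670.4 and 549 CPM in furtive cells against 98.2 and 117 CPM in Tconv cells (2.38 ± 0.17, adjusted p = 6.61e-07). Capg, an actin-capping protein, had 249.7 and 396 CPM in furtive cells against 36.2 and 36.6 CPM in Tconv cells (2.90 ± 0.21, adjusted p = 6.61e-07).

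Targets of IL-2 receptor signalling through STAT5 were higher in 5 of 12 tested members and lower in none, with Il2ra itself among the 5 (2.50% of all genes were higher). Against the same Tconv samples, resting Treg cells had 8 of 13 higher and 0 lower (3.51% of all genes higher). Activated Treg cells had 8 of 12 higher and 2 lower (9.75% of all genes higher). Socs2, a feedback inhibitor of cytokine receptors, had 41.6 and 63.4 CPM in furtive cells, 91.6 and 130.0 CPM in resting Treg, 25.01 and 2.58 CPM in activated Treg and 1.03 and 3.14 CPM in Tconv cells (4.54 ± 0.58 to Tconv, adjusted p = 2.07e-04). The kinase Pim1 had 134 and 201 CPM in furtive cells against 52.2 and 53.4 CPM in Tconv cells (1.42 ± 0.21, adjusted p = 9.04e-04). GFP, on which the cells were sorted, had 50.9 and 74.0 CPM in furtive cells, 78.1 and 82.1 CPM in resting Treg, 119 and 113 CPM in activated Treg and 1.55 and 3.14 CPM in Tconv cells. Of the tested Treg signature members, 4 did not pass: Il2rb, Ecm1, Nt5e and Tgfb1.

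**Figure D4:**
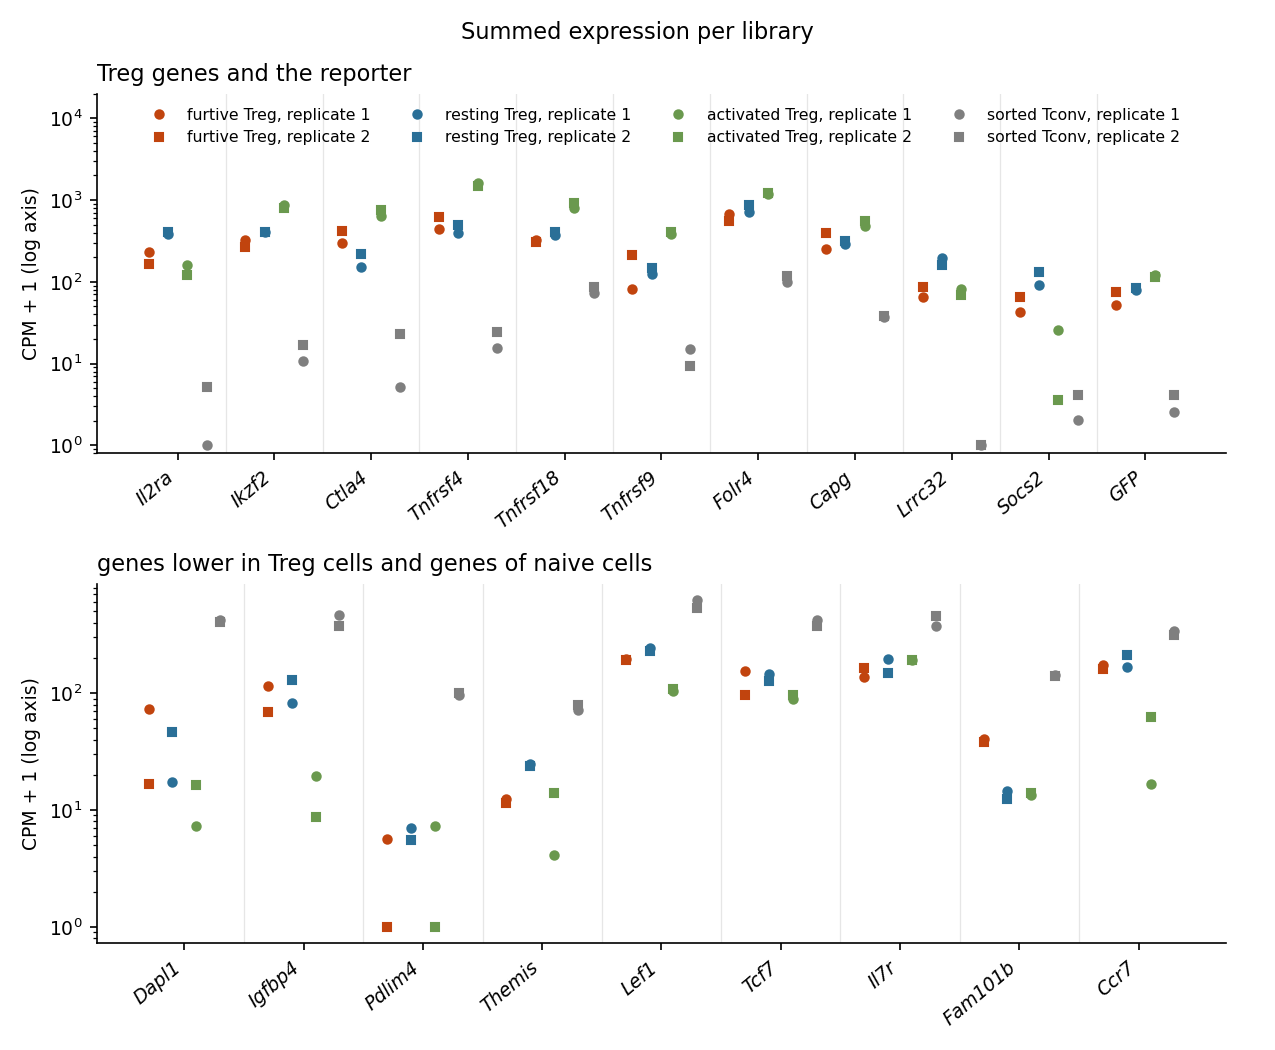
Summed level per library (CPM + 1, log axis) of Treg genes and GFP (top) and of genes lower in Treg cells or typical of naive cells (bottom), by class and replicate. For each gene in the top panel both furtive sums lie above both Tconv sums, and in the bottom panel both lie below.

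The genes lower in furtive cells included most of a list of genes that are low in Treg cells as a whole. Of the 12 genes of that list 11 were tested, and 10 were lower in furtive cells, none higher, with a median log2 fold change of -1.86. All 11 were lower in resting and in activated Treg cells too, against the same Tconv samples. Dapl1 had 71.7 and 15.8 CPM in furtive cells, 16.5 and 45.6 CPM in resting Treg, 6.25 and 15.5 CPM in activated Treg and 423 and 402 CPM in Tconv cells (-3.10 ± 0.29 to Tconv, adjusted p = 1.07e-05). Igfbp4, which encodes a secreted binding protein for insulin-like growth factors, had 113 and 68.7 CPM in furtive cells against 462 and 372 CPM in Tconv cells (-2.25 ± 0.23, adjusted p = 2.38e-05). Pdlim4 had 2 UMIs over both furtive sums and 280 over both Tconv sums, a ratio of 0.0332 with a counting interval of 0.00400 to 0.121 (adjusted p = 1.61e-05). Themis, an adaptor of T cell receptor signalling, had 11.6 and 10.6 CPM in furtive cells against 70.3 and 78.5 CPM in Tconv cells (-2.85 ± 0.37, adjusted p = 2.18e-04). In these 4 genes both furtive sums lay below both Tconv sums.

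Genes of naive and resting T cells were lower in 9 of 17 tested members, and 1 was higher, with a median log2 fold change of -1.02 (1.23% of all genes were lower). Against the same Tconv samples, 8 of 17 were lower in resting Treg cells (2.59% of all genes, median -0.38). In activated Treg cells 16 of 17 were lower (8.64% of all genes, median -2.44). Lef1, a transcription factor of naive T cells, had 194 and 190.2 CPM in furtive cells, 240.2 and 230.3 CPM in resting Treg, 103 and 108 CPM in activated Treg and 625 and 536 CPM in Tconv cells (-1.75 ± 0.18 to Tconv, adjusted p = 2.15e-05). The related factor Tcf7 had 155 and 95.1 CPM in furtive cells against 423 and 372 CPM in Tconv cells (-1.73 ± 0.21, adjusted p = 1.36e-04). Il7r, the receptor chain for the survival cytokine IL-7, had 136 and 164 CPM in furtive cells against 373 and 459 CPM in Tconv cells (-1.65 ± 0.18, adjusted p = 4.03e-05). The furtive sums of all 3 genes stayed below the Tconv sums.

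Ccr7 (chromosome 11, 99144196 to 99155077), a receptor in the marker label of the resting clusters, had 173 and 158 CPM in furtive cells, 167 and 209.8 CPM in resting Treg, 15.6 and 61.8 CPM in activated Treg and 337 and 314 CPM in Tconv cells. Furtive cells thus had 4.29 times the mean level of activated Treg cells and 0.882 times that of resting Treg cells, and were 1.12 lower than Tconv cells on the log2 scale (log2 fold change -1.12 ± 0.17, adjusted p = 0.00115). Id3, an inhibitor of E-protein transcription factors, was the 1 member of the naive list that was higher in furtive cells. Fam101b was lower in furtive than in Tconv cells (39.3 and 36.98 against 142 and 140.3 CPM, log2 fold change -2.03 ± 0.24, adjusted p = 1.09e-04), and its resting Treg sums of 13.5 and 11.4 CPM lay below the furtive ones.

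The difference between the sorts was then taken within 1 cluster, as an alternative chosen after seeing the data, since the cluster mixture of furtive and Tconv sums differs. In Tconv_resting_1, 59 furtive cells were set against 348 Tconv cells, and 85 genes were higher (1.94%) and 50 lower (1.14%) of 4375 tested. Of 19 tested Treg signature genes 15 were higher and none lower, with a median log2 fold change of 3.03. Il2ra had 195 and 202 CPM in these furtive cells and 0 CPM in both Tconv sums, Ikzf2 126 and 364 CPM against 4.30 and 3.32 CPM, and Ctla4 191 and 394 CPM against 2.15 and 15.0 CPM. Dapl1 had 102 and 10.1 CPM in furtive cells of that cluster against 488 and 525 CPM in Tconv cells. For these 4 genes the furtive and Tconv sums did not overlap inside the cluster.

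Furtive cells without a reporter transcript were also summed on their own. The 57 and 22 furtive cells with no UMI of Foxp3 or GFP had 195 and 171 CPM of Il2ra, 316 and 260 CPM of Ikzf2 and 284 and 536 CPM of Ctla4. The 359 and 145 Tconv cells with no such UMI had 0 and 4.28 CPM of Il2ra, 9.91 and 16.0 CPM of Ikzf2 and 4.17 and 22.5 CPM of Ctla4. These values are a description, because the cells were split by a measured transcript.

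Interferon-response genes were the third group to move. Of 23 tested members 12 were higher in furtive than in Tconv cells and none lower, with a median log2 fold change of 0.99. Against the same Tconv samples, resting Treg cells had 3 of 23 higher and 4 lower, and activated Treg cells 2 of 23 higher and 5 lower. Over all genes tested, 2.50% were higher in furtive, 3.51% in resting Treg and 9.75% in activated Treg cells. The shares of lower genes were 1.23%, 2.59% and 8.64%. The activated Treg share of 8.70% higher members was thus close to that over all genes. Per thinned cell, the 25 listed genes had medians of 7 and 9 UMIs in furtive cells, 5 and 5 in resting Treg, 7 and 7.5 in activated Treg and 3 and 4 in Tconv cells. The Treg cells of the same sort annotated as tissue-like had medians of 14.5 and 12, above those of furtive cells. Iigp1, an interferon-inducible GTPase, had 155 and 153 CPM in furtive cells, 55.6 and 59.3 CPM in resting Treg, 81.3 and 48.9 CPM in activated Treg and 27.4 and 28.3 CPM in Tconv cells (2.31 ± 0.22 to Tconv, adjusted p = 1.48e-05). Igtp, a GTPase of the same family, had 296 and 264 CPM in furtive cells against 98.7 and 108 CPM in Tconv cells (1.31 ± 0.17, adjusted p = 2.06e-04). Ifit1, which binds viral RNA, had 171 and 312 CPM in furtive cells, 58.6 and 34.2 CPM in resting Treg, 31.3 and 30.9 CPM in activated Treg and 55.3 and 81.7 CPM in Tconv cells (1.59 ± 0.24 to Tconv, adjusted p = 9.14e-04). Both furtive sums of Iigp1 and Igtp lay above the 6 other sums. For Ifit1, 40 of the 74 UMIs of furtive replicate 1 lay in 1 cell.

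The share of Irf7-cluster cells was higher in furtive cells too, a group that leaves out the GFP+ cells of other Treg annotations. Without the Irf7 clusters on both sides 6 of 23 tested members were higher (over all 5672 genes 139 were higher, 2.45%, and 67 lower, 1.18%) and the median fell to 0.38. Iigp1 then had 53.7 and 54.4 CPM in furtive cells against 16.5 and 17.4 CPM in Tconv cells (1.52 ± 0.40 on the log2 scale, adjusted p = 0.0264), and Ifit1 35.8 and 85.5 CPM against 17.1 and 27.8 CPM (1.11 ± 0.43, adjusted p = 0.199). Within Tconv_resting_1, 3 of 19 tested members were higher (1.94% of all genes), namely Ifi27l2a, Ly6a and Gbp2. Within the Irf7 clusters, furtive cells had 502 and 363 CPM of Iigp1 against 135 and 132 CPM in Tconv cells, and 635 and 792 CPM of Ifit1 against 432 and 594 CPM. The chemokine Cxcl10 was higher in furtive cells (55.5 and 111 against 4.65 and 2.09 CPM, log2 fold change 4.08 ± 0.48, adjusted p = 1.04e-04), but its 45 UMIs came from 6 furtive cells, and outside the Irf7 clusters 1 and 0 UMIs were left in the 2 furtive sums.

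**Figure D5:**
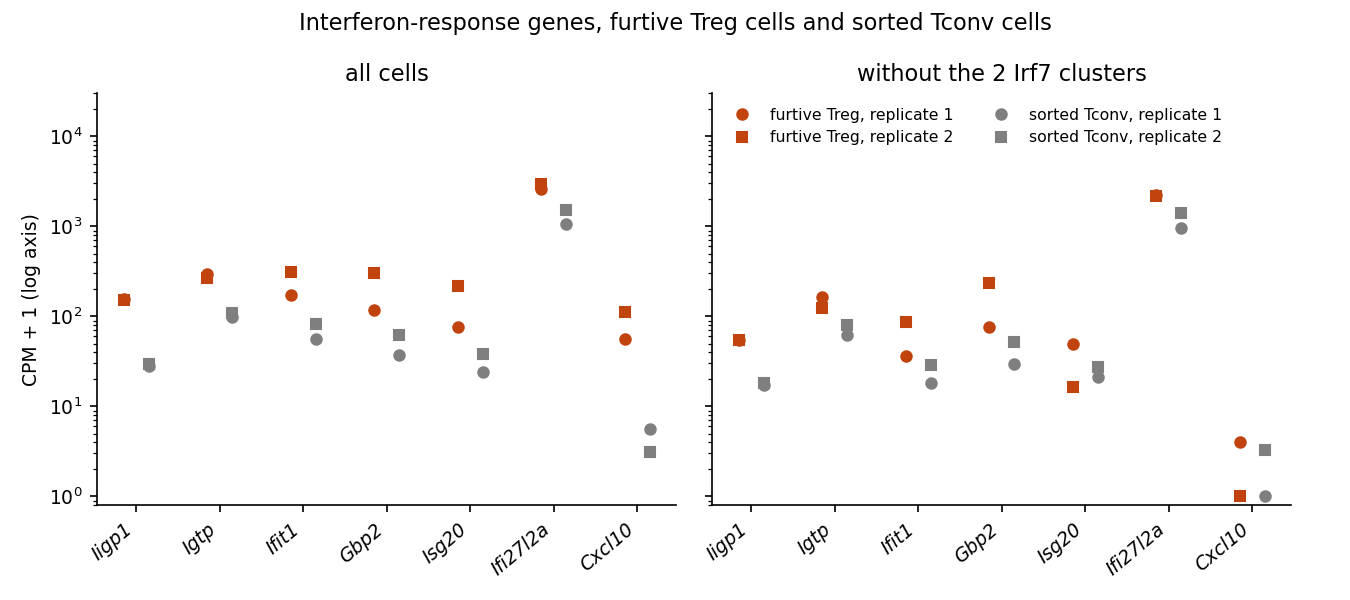
Level per library (CPM + 1, log axis) of 7 interferon-response genes in furtive Treg cells and sorted Tconv cells, for all cells (left) and without the 2 Irf7 clusters (right). Iigp1 levels in furtive cells are 155 and 153 CPM on the left and 53.7 and 54.4 CPM on the right, against 27.4 and 28.3 and 16.5 and 17.4 CPM in Tconv cells.

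The count of activated and memory T cell genes depended on which cells were compared. Of 24 tested members 3 were higher and none lower against all Tconv cells (S100a4, S100a10 and Maf), 12.5% of the list beside 2.50% of all genes, and 8 were higher with the replicate block. With resting Tconv cells alone on the Tconv side 16 of 21 were higher, in the 3 resting clusters on both sides 9 of 16, and within Tconv_resting_1 6 of 14, with none lower in these settings. Over all genes of the same fits 6.30%, 4.13% and 1.94% were higher, so the rate of calls as a whole also differed by setting. The first of these settings drops activated cells from the Tconv side only and keeps the 25 furtive cells of activated clusters. Its sides thus differ in activated cells by design. Maf, a transcription factor of effector T cells, had 123 and 497 CPM in furtive cells, 33.0 and 86.6 CPM in resting Treg, 791 and 603 CPM in activated Treg and 28.9 and 75.4 CPM in Tconv cells (2.31 ± 0.46 to Tconv, adjusted p = 0.00875). Without furtive replicate 2 its adjusted p was 0.258. S100a10, which binds annexin A2, had 1107 and 1088 CPM in furtive cells against 397 and 577 CPM in Tconv cells (1.03 ± 0.17, adjusted p = 0.00158). The adjusted p of S100a10 was 0.103 without furtive replicate 1 and 0.0716 without Tconv replicate 1, and that of S100a4 (0.0341) was 0.164 without furtive replicate 1 and 0.384 without furtive replicate 2.

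Markers of other cell types were also counted. The summed level of 10 B cell markers was 335 and 676 CPM in furtive cells, 246 and 349 CPM in resting Treg, 650 and 664 CPM in activated Treg and 209 and 221 CPM in Tconv cells. Like resting and activated Treg cells, furtive cells had Cd79b and Cd74 higher than Tconv cells, of the 3 B cell markers tested. The adjusted p of Cd79b (0.00354) was 0.123 to 0.454 in the 4 fits that left out 1 replicate, and that of Cd74 (0.0121) was 0.267 without furtive replicate 2. The 11 myeloid markers summed to 354 and 449 CPM in furtive, 344 and 326 CPM in resting Treg, 472 and 422 CPM in activated Treg and 246 and 282 CPM in Tconv cells. UMIs of at least 3 marker genes of one such list were found in 9.64% and 23.5% of furtive cells and in 2.76% and 4.73% of Tconv cells. The shares were 7.30% and 11.8% in resting Treg, 12.5% and 18.6% in activated Treg and 11.8% and 35.9% in tissue-like Treg cells. Such UMIs were thus not particular to furtive cells among the Treg classes. Without furtive and Tconv cells with 3 such markers 125 genes were higher and 51 lower, with 21 Treg signature genes among the higher. A stricter cut at 2 marker genes removed 47.0% and 64.7% of furtive cells and 29.0% and 40.5% of Tconv cells. It left 17 genes higher and 6 lower, with 9 Treg signature genes among the higher. At least 2 such markers were also found in 42.3% and 52.6% of resting Treg and 63.9% and 81.4% of activated Treg cells. The part of these markers in the results was not tested. Of 7 markers of CD8 T and NK cells, 6 had a UMI in furtive replicate 1 (all but Cd8a) and 4 in furtive replicate 2. The list summed to 39.3 and 132 CPM in furtive and 67.7 and 58.6 CPM in Tconv cells. In resting Treg cells it summed to 27.0 and 22.8 CPM and in activated Treg cells to 9.38 and 59.2 CPM. The furtive sum of replicate 2 was the highest of these. The 4 markers of gamma delta and NKT cells were at 0 in both furtive and both activated Treg samples. They had 1 and 0 UMIs in resting Treg cells and 1 and 0 in Tconv cells. The cluster named NKT holds 6 furtive and 3 Tconv cells, and counts this low cannot bear on that placement.

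Against the other Treg cells of the same sort, furtive cells were described by a rule of size without a test, since the clusters were drawn from these expression values. A gene passed if its mean CPM differed at least 2-fold, reached 50 CPM in the higher group, and both samples of one group lay above both of the other. Against resting Treg cells, 68 genes were higher (2.39% of 2844 at the floor) and 31 lower (1.09%). Without furtive replicate 1 the counts were 230 and 91, without furtive replicate 2 31 and 44, and without resting Treg replicate 1 103 and 46. Interferon-response genes made up 17 of the 68, out of 23 listed genes at the floor. Without the furtive cells of the Irf7 clusters 2 of 16 at the floor were higher (Ly6a and Ly6c2), and Iigp1 had 53.7 and 54.4 CPM in furtive cells against 55.6 and 59.3 CPM in resting Treg cells. Activated and memory genes made up 11, out of 19 at the floor. Of the furtive cells 25 lie in activated clusters, and with furtive cells of the 3 resting clusters alone 4 of 14 activated and memory genes were higher (S100a4, S100a6, Cxcr3 and Ccl5).

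Ccr2, a receptor for inflammatory monocyte chemokines, had 46.2 and 100.4 CPM in furtive cells and 0 CPM in both resting Treg sums, at least 23.1-fold higher with the 2 resting Treg sums together set at 3 counts. S100a4, a calcium-binding protein of memory T cells, had 414 and 824 CPM in furtive cells and 18.0 and 68.4 CPM in resting Treg cells, a ratio of means of 14.3, and 38 of 117 furtive cells held a UMI of it. In furtive cells of the 3 resting clusters it had 191 and 582 CPM, a ratio of 8.95. The chemokine receptor Cxcr3 had 97.1 and 122 CPM in furtive cells and 12.01 and 13.7 CPM in resting Treg cells, 8.51 times as much. Ccl5 had 351 and 956 CPM in furtive and 16.5 and 16.0 CPM in resting Treg cells, but 161 of the 333 furtive UMIs lay in 1 cell. Of 24 Treg signature genes at the floor, 5 were lower in furtive cells (Lrrc32, Gpr83, Ecm1, Socs2 and Cd83) and 2 were higher (Itgae and Icos). Gpr83, a G protein-coupled receptor, had 85.5 and 26.4 CPM in furtive cells against 180.2 and 164 CPM in resting Treg cells, 0.325 times as much.

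Against activated Treg cells, 69 genes were higher in furtive cells (2.21% of 3125 at the floor) and 173 lower (5.54%). Without furtive replicate 1 the counts were 140 and 247, without furtive replicate 2 69 and 265, and without activated Treg replicate 2 87 and 264. Of the 15 naive and resting genes at the floor 8 were higher in furtive cells and none lower, among them Ccr7, Klf2 and Bach2. The repressor Bach2 had 53.2 and 74.0 CPM in furtive cells against 6.25 and 15.5 CPM in activated Treg cells (a ratio of means of 5.86), while its resting Treg sums of 66.1 and 59.3 CPM were close to the furtive ones. Ly6c1, a surface protein of the Ly6 family, had 240.4 and 217 CPM in furtive cells against 9.38 and 10.3 CPM in activated Treg cells, 23.2 times as much. Interferon-response genes were higher in 14 of 23 at the floor, and in 3 of 19, with 3 lower, without the furtive cells of the Irf7 clusters. Of the 28 Treg signature genes at the floor, 1 was higher (Socs2) and 14 were lower, with a median log2 ratio of -1.03 beside -0.17 over all genes at the floor. Among the lower ones were Ikzf2, Tnfrsf4, Tnfrsf18, Tnfrsf9 and Icos, while Il2ra was not lower (231 and 164 CPM in furtive and 159 and 121 CPM in activated Treg cells).

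Unsorted CD4 T cells of WT mice of the same age and strain gave a further measure of reporter transcripts among cells annotated as Tconv, where no cell in these samples is annotated as furtive. Cells annotated as resting Tconv had a GFP UMI in 0.456% of 658 cells (0.0941% to 1.33%) and 1.98% of 253 cells (0.645% to 4.55%) in the unsorted samples, against 0.974% of 308 and 1.85% of 108 resting Tconv cells of the GFP- sort. Cells annotated as activated Tconv had one in 5.04% of 119 (1.87% to 10.7%) and 14.3% of 70 cells (7.07% to 24.7%) in the unsorted samples, against 0 of 48 (up to 6.25%) and 2.50% of 40 (0.0633% to 13.2%) in the GFP- sort. Over resting annotations the ranges of the unsorted and sorted shares overlap. Over activated annotations both unsorted shares lie above both sorted ones, but their intervals overlap.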

How the data were processed

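Single-cell UMI counts per gene and cell were deposited by the authors with a table of cell labels. Reads were processed with Cell Ranger 3.0.2 on mm10, per the submitters' processing notes. The percent of mitochondrial UMIs and the Scrublet doublet score of each cell are the authors' deposited values, as are clusters, annotations, hashtag counts and separate Foxp3 and GFP counts. In the deposited matrix the Foxp3 row held the sum of both in 1072 of 1072 sorted cells, so the separate counts replaced it. The metadata hold 38 columns that were not used.

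No further cell filter was applied. Counts were summed per sample and class and tested with edgeR 4.0.16 (R 4.3.3; quasi-likelihood F test, TMM, filterByExpr at 10 counts, Benjamini-Hochberg adjusted p under 0.05). DESeq2 1.42.0, other scaling, no filter, other cell selections, thinning to 1500 UMIs and leaving out each replicate were alternatives. Sums hold between 189292 and 1935241 UMIs, which limits low genes in furtive cells most. The replicate numbers pair the sorts because, per the deposited batch column, equal numbers shared a channel, and the correlation of the 2 sorts' replicate differences was 0.0735. Shares have exact (Clopper-Pearson) 95% intervals, and the floor of a count of 0 is 3 counts. The test script was tested on simulated data. Coordinates are from GENCODE on GRCm38.

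Named genes were GFP, the markers, the 10 highest and 10 lowest genes of each comparison, and up to 6 per list. The members and the lists were chosen with earlier results of these data known. Some items of the lists are not reported here.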

Additional observations from a re-analysis of the deposited data

How the results depend on the processing

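Against Tconv cells, 155 genes were higher and 76 lower. With resting Tconv cells alone on the Tconv side the counts were 348 and 269, after thinning 57 and 19, without cells with 2 markers of another type 17 and 6, within Tconv_resting_1 85 and 50, and with DESeq2 73 and 22. The lower count was also 151 with the replicate block, 158 without a filter on low counts, 142 with the Treg sums in the fit and 142 in the 3 resting clusters. Leaving out 1 replicate gave 64 to 149 higher and 17 to 74 lower. The 24 higher Treg signature genes became 12 after thinning, 9 without cells with 2 other markers, 15 within Tconv_resting_1 and 16 to 21 with 1 replicate left out. By the fold rule, 68 higher and 31 lower genes against resting Treg cells became 212 and 147 after thinning, 165 and 93 without cells with 2 other markers and 32 and 7 at a floor of 100 CPM, with 31 to 230 and 36 to 91 when 1 replicate was left out. The 69 and 173 against activated Treg cells became 173 and 423, 210 and 337, and 28 and 66 under the same settings, and 69 to 140 and 213 to 265. The GFP share difference of 26.2 points was 7.88 after thinning and 21.5 to 30.9 with 1 replicate left out, and the furtive share was 14.7 to 25.1%. The log2 fold change of Ccl5 was 4.33 with resting Tconv cells alone and -0.19 with all Tconv cells. Tconv cells of the 3 resting clusters had 16.3 and 42.1 CPM of Ccl5, and all Tconv cells without a reporter UMI 418 and 864 CPM. The furtive side was the same in both settings. The cause of these shifts was not tested, beyond the fewer cells or counts that thinning and leaving out imply. Of 63 called named genes, 28 were called in all 4 fits that left out 1 replicate. At 34 furtive cells in replicate 2, depth limits low genes.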
